A study of Bos taurus with 6 samples.

Results

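The miR-2284 and miR-2285 families are microRNA families of cattle and other ruminants in which many closely related precursors lie at many places of the genome. Their members were taken here as all mature names beginning with bta-miR-2284 or bta-miR-2285, which gave 54 of the 755 mature bovine names in the count files, 32 of miR-2284 and 22 of miR-2285. They came from 85 of the 766 precursors counted and filled 132 of the 906 rows in each library, a row being a mature name on a precursor. Small RNA of granulosa cells, the cells that line the follicle and surround the oocyte, was sequenced in 6 libraries, of which 3 were made from preovulatory dominant and the other 3 from anovulatory subordinate follicles. All follicles came from hormonally synchronized Simmental heifers on day 19 of the estrous cycle, so both groups carry that treatment, and dominant and subordinate follicles came from the same animals. RNA was pooled into the libraries, and dominant follicles were far fewer than subordinate ones, so a dominant library rests on fewer follicles and the spread between libraries is a spread between such pools. The p-values below set the difference between the groups against variation between such pools only, estimated with information from all miRNAs tested. They do not cover variation between single animals or follicles, and the main fit did not use that the animals were shared.

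A microRNA is cut from the hairpin of a precursor transcript, and one strand of the hairpin, the 5p or the 3p arm, guides silencing of messenger RNAs that pair with its seed near the 5′ end. When a family has grown by duplication, several precursors can release the same or nearly the same mature molecule. A short read then maps to all of them, and neither the precursor of origin nor, for very similar members, the mature name can be read from it. The rows of the 2 families show where this happened. Of the 54 names, 17 (31.5%) were listed on more than 1 precursor, against 56 of the 701 other names (7.99%), and 16 member precursors carried several mature names that were not simply their own 5p and 3p arms.

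The 2 families were widely but thinly detected. Reads were found for 39 of the 54 names (72.2%), 21 of miR-2284 and 18 of miR-2285, and for 419 of the 701 other names (59.8%). A name was counted as detected in a group when 2 or more of its 3 libraries held a read. By this rule 27 members (50.0%) were detected in preovulatory dominant and 26 (48.1%) in subordinate follicles, against 41.5% and 42.8% of the other names, and 23 members were detected in both. With members of equal counts taken once, 21 were detected in dominant and 20 in subordinate follicles, so shared reads raise the members' counts. All 6 libraries held reads of 18 names, among them names that share all their reads. The 4 names detected only in dominant follicles, miR-2284b, miR-2284f, miR-2285o and miR-2285s, reached at most 2 reads in any library, and the 3 detected only in subordinate follicles, miR-2285j, miR-2285m and miR-2285r, at most 3. Reads this few give no measurable difference between the groups, whichever side they fall on.

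Taking the largest precursor count of each name in each library, 15 names had no read at all and 19 had between 1 and 9 reads over the 6 libraries together. A further 11 had between 10 and 99 and 9 had 100 or more. With totals between 190385 and 364125 reads per library, 3 reads were worth between 8.86 and 13.9 CPM (counts scaled to a common library size with TMM factors, which adjust for a few miRNAs taking much of a library). A count of 0 therefore allows a level of up to that size, and intervals of this kind cover counting error only. Of the names with no read, 11 belonged to miR-2284 and 4 to miR-2285. Averaging 5 or more reads in a group was reached by 16 names, which stood for 11 sets of reads when names with equal counts are joined. The 9 names with 100 or more reads likewise stand for fewer sets: miR-2284x with miR-2284y, miR-2284z with the miR-2284aa names, miR-2285f and miR-2285k.

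Exact agreement of counts showed which names shared their reads. Names agreed in every library and also shared a precursor in 3 sets. MiR-2284x and miR-2284y had 264, 238 and 289 reads in dominant and 208, 203 and 181 in subordinate follicles, all on mir-2284x. MiR-2284z and the 4 names miR-2284aa-1 to miR-2284aa-4 had 39, 20 and 52 against 37, 32 and 27 reads, and shared 7 precursors. MiR-2285b and miR-2285u had 3, 1 and 2 against 6, 1 and 5 reads. These sets hold 9 names, each with the values of its set, so a count over names gives miR-2284x 2 votes and miR-2284z 5. The pairs miR-2284c with miR-2284m and miR-2284o with miR-2284p also agreed, but on 1 read each and without a common precursor, which is agreement by low counts.

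**Figure D1:**
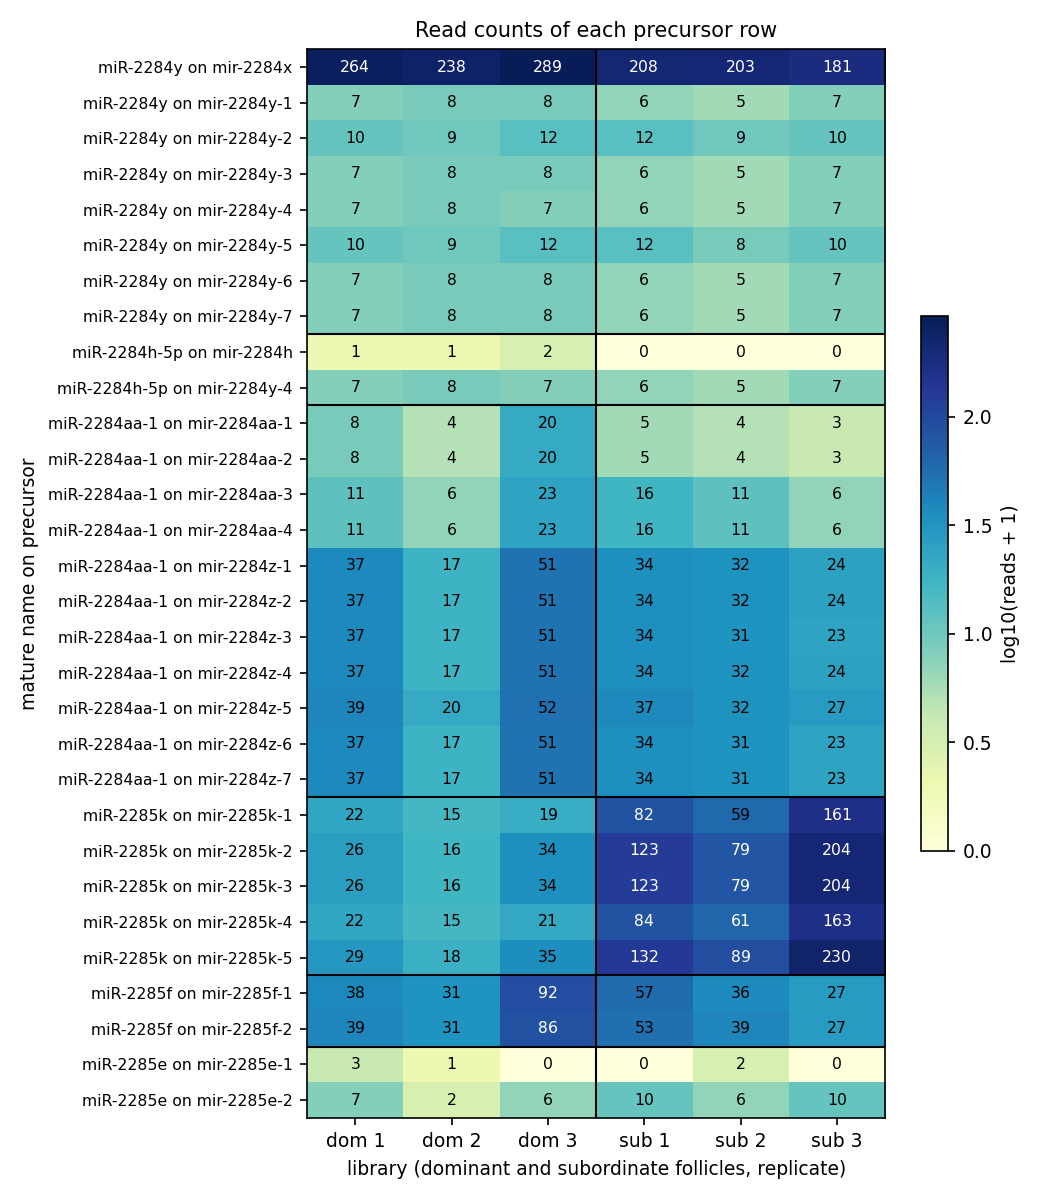
Read counts of 6 mature names on each of their precursors (one line per precursor, printed in the cell and shaded by log10 of reads plus 1) in the 3 libraries of preovulatory dominant (dom) and 3 of subordinate (sub) follicles. MiR-2284y has 181 to 289 reads on mir-2284x but 5 to 12 on each mir-2284y precursor. The 5 miR-2285k lines, which largely share reads, carry the same difference between the groups.

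The rows split miR-2284y from the precursors it is named for. On its 7 own precursors, mir-2284y-1 to mir-2284y-7, it had between 5 and 12 reads in any library, while on mir-2284x it had between 181 and 289. The smallest of those rows amounted to 2.78% of the mir-2284x row in dominant and 3.04% in subordinate follicles, as sums over 3 libraries. The level printed for miR-2284y is thus that of mir-2284x, and the 2 names are given as miR-2284x/y from here on. On mir-2284y-1 alone the fitted log2 fold change, dominant over subordinate, was 0.56 (SE 0.49, edgeR adjusted p = 0.43), and on mir-2284x alone 0.63 (SE 0.20, edgeR adjusted p = 0.0572), both adjusted over 480 rows.

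MiR-2284h-5p was another name counted mainly on a precursor of a different letter. It had 7, 8 and 7 reads in dominant and 6, 5 and 7 in subordinate follicles, all on mir-2284y-4, and miR-2284y had exactly those counts on that precursor. On mir-2284h itself miR-2284h-5p had 1, 1 and 2 reads in dominant follicles and none in subordinate ones, under the floor of 3 reads in every library. Fitted alone, that row passed the limits for a call given below (edgeR adjusted p = 0.0997), on 4 reads in all. Its partner from the 3p arm, miR-2284h-3p, had none.

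Within the set of miR-2284z and the miR-2284aa names, the shared rows did not all behave alike. The 7 mir-2284z rows lay close together, between 17 and 52 reads in dominant and between 23 and 37 in subordinate libraries. The mir-2284aa-1 and mir-2284aa-2 rows were lower, with 8, 4 and 20 reads in dominant and 5, 4 and 3 in subordinate follicles. Most of the excess in dominant follicles came from replicate 3. Dominant replicate 2 had the same 4 reads as subordinate replicate 2. Yet 1 read was worth 4.64 CPM in that dominant and 3.23 CPM in that subordinate library. These equal counts thus stand for a higher level in the dominant library. The fit for mir-2284aa-1 alone gave a log2 fold change of 1.52 (SE 0.59, edgeR adjusted p = 0.103), which did not pass. The mir-2284aa-3 and mir-2284aa-4 rows, with 11, 6 and 23 against 16, 11 and 6 reads, gave 0.44 (SE 0.50, edgeR adjusted p = 0.526). All 4 miR-2284aa names carried the same counts on these precursors, so the names themselves remain inseparable.

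Reads of the families made up a small share of all miRNA reads, and their sum hid a shift in make-up. Counting shared reads once, they took 0.165, 0.184 and 0.174% of reads in dominant and 0.172, 0.120 and 0.180% in subordinate libraries, or 0.174% ± 0.0092 against 0.157% ± 0.0327 (SD, n = 3 each). The ranges overlapped. The miR-2284 names took 0.124, 0.147 and 0.119% in dominant and 0.0893, 0.0744 and 0.0771% in subordinate libraries, without overlap. The miR-2285 names took 0.0414, 0.0369 and 0.0550% against 0.0823, 0.0452 and 0.103%, with overlap. These sums were not tested.

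**Figure D2:**
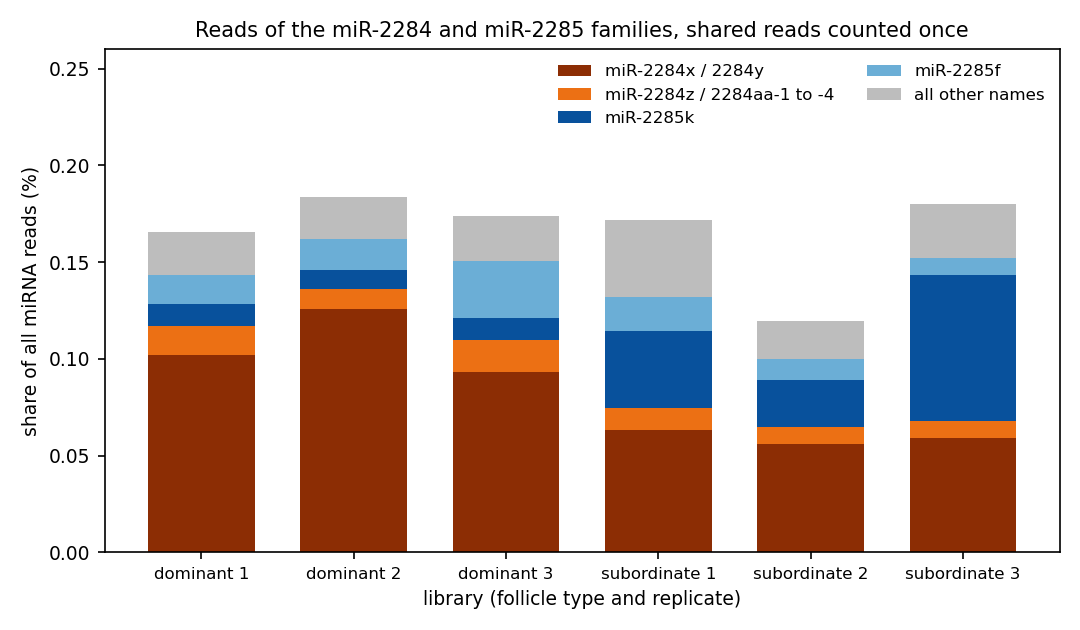
Share of all miRNA reads (%) taken by the 2 families in each of the 6 libraries, with shared reads counted once and the bars divided by mature name. The miR-2284x/y segment is the largest in 5 of 6 bars, and the miR-2285k segment exceeds it in subordinate replicate 3.

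Most of these sums came from 4 sets of reads. MiR-2284x/y, miR-2284z with miR-2284aa, miR-2285f and miR-2285k together gave 87.2% ± 0.891 of the members' reads in dominant and 81.7% ± 4.23 in subordinate libraries (SD, n = 3). MiR-2284x/y alone gave 61.2% ± 7.45 in dominant and 38.8% ± 7.15 in subordinate libraries. MiR-2285k gave 6.14% ± 0.854 and 28.6% ± 11.6. A share of the members' reads falls for all others when one of them rises, so the levels of single names are given next as CPM.

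**Figure D3:**
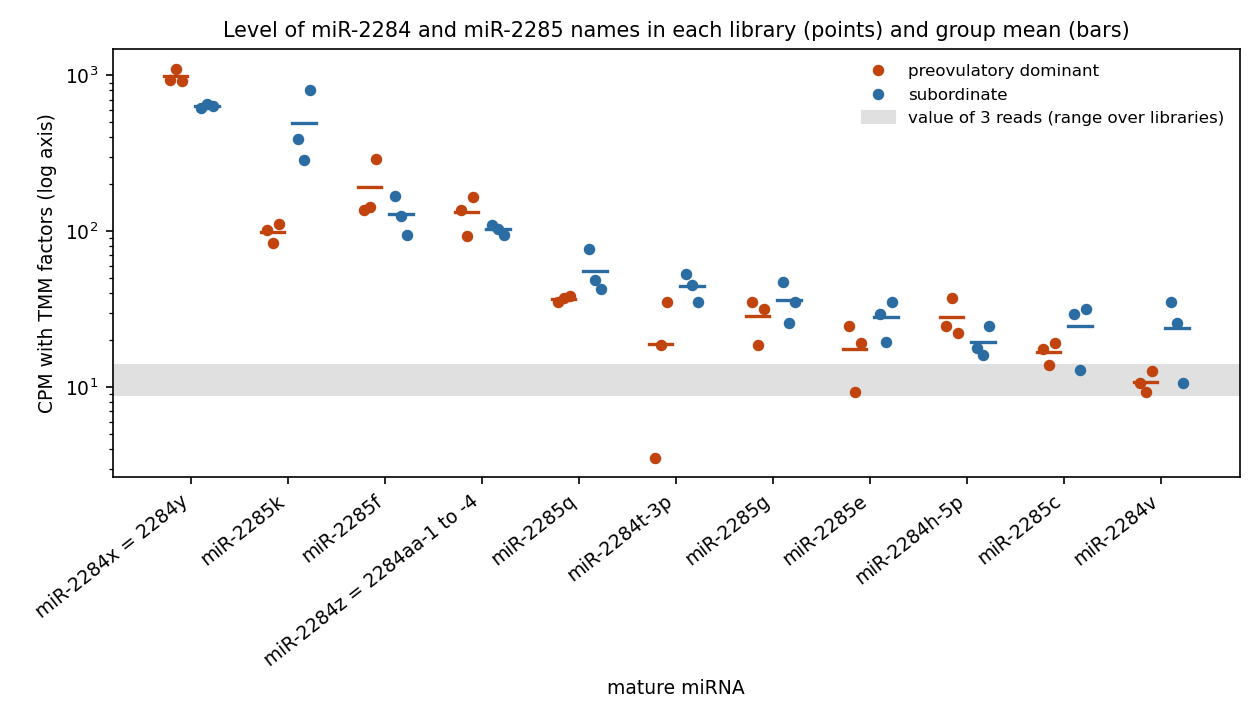
Level in CPM with TMM factors (log axis) of the 16 names averaging 5 or more reads in a group, names with equal counts drawn once, points for libraries, bars for group means, the grey band for the value of 3 reads. MiR-2285k lies between 83.5 and 111 CPM in dominant and between 288 and 812 in subordinate libraries, and miR-2284x/y lies higher in dominant libraries.

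MiR-2285k was the only member that passed all limits for a call in the fit of the 6 libraries. It had 29, 18 and 35 reads in dominant and 132, 89 and 230 in subordinate follicles, or 102, 83.5 and 111 CPM against 390, 288 and 812 CPM. Every subordinate library was above every dominant one, and subordinate replicate 3 was the highest. The means were 99.1 ± 14.3 and 496 ± 278 CPM (SD, n = 3), and the log2 fold change, dominant over subordinate, was -2.31 (SE 0.41, edgeR quasi-likelihood adjusted p = 0.0045). The name has 5 precursors, and each of their rows gave nearly the same answer. Fitted as separate rows, they ranged from -2.24 to -2.31 with edgeR adjusted p between 0.00307 and 0.0054. Since these rows largely share reads, they are not 5 measurements, and the call held on each of them. Without subordinate replicate 3 the log2 fold change was -1.76.

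MiR-2284x/y was the most abundant set of the families in both groups and was moderately higher in dominant follicles. Its levels were 931, 1104 and 920 CPM in dominant and 614, 657 and 639 CPM in subordinate follicles, with no overlap and means of 985 ± 103 and 636 ± 21.3 CPM (SD, n = 3). The log2 fold change of 0.63 (SE 0.18, edgeR adjusted p = 0.0417) passed the limits on p (0.05) and on the false discovery rate (0.1) but not the fold limit of 1 on the log2 scale, so it was not called. Leaving out subordinate replicate 1 gave an edgeR adjusted p of 0.139 with a log2 fold change of 0.60.

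MiR-2285f and the miR-2284z set did not pass the test. MiR-2285f had 138, 144 and 293 CPM in dominant and 168, 126 and 95.3 CPM in subordinate follicles, with overlap, a log2 fold change of 0.56 (SE 0.38) and an edgeR adjusted p of 0.319. The highest value was that of dominant replicate 3, and without this library the log2 fold change was 0.10. Its 2 precursor rows differed by at most 6 reads in any library. The miR-2284z set had 138, 92.8 and 166 CPM against 109, 103 and 95.3 CPM, a log2 fold change of 0.37 (SE 0.31) and an edgeR adjusted p of 0.419.

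The order of these levels differed between the groups by the place of miR-2285k. Means fell from miR-2284x/y (985 CPM) to miR-2285f (191), miR-2284z (132), miR-2285k (99.1) and miR-2285q (36.9) in dominant follicles, where miR-2285f overlapped miR-2284z and miR-2284z overlapped miR-2285k. In subordinate follicles the order was miR-2284x/y (636 CPM), miR-2285k (496), miR-2285f (130), miR-2284z (103) and miR-2285q (55.9). There miR-2285k overlapped miR-2284x/y, and miR-2285f overlapped miR-2284z. Mature miRNAs have nearly the same length, but how well each is ligated and amplified was not corrected, so these are orders of reads.

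Below these sets, members had fewer than 30 reads in every library. MiR-2285q had 10, 8 and 12 reads in dominant and 26, 15 and 12 in subordinate follicles. In CPM its groups did not overlap (35.3, 37.1 and 38.2 against 76.8, 48.5 and 42.3), yet the log2 fold change of -0.60 (SE 0.40) did not pass (edgeR adjusted p = 0.309). MiR-2284t was the precursor with reads from both arms. MiR-2284t-3p had 1, 4 and 11 reads in dominant and 18, 14 and 10 in subordinate follicles, and miR-2284t-5p had 1, 0 and 1 against 2, 2 and 4, so the 3p arm had as many reads or more in each library. The log2 fold changes were -1.19 (SE 0.64) and -1.67 (SE 0.88), with edgeR adjusted p of 0.226 and 0.222. For the 3p arm the groups were barely apart, with 35.02 CPM in dominant replicate 3 and 35.29 CPM in subordinate replicate 3.

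Of the remaining sets that averaged 5 or more reads in a group, none passed. MiR-2284v had 3, 2 and 4 against 12, 8 and 3 reads, with a log2 fold change of -1.11 (SE 0.59, edgeR adjusted p = 0.222). MiR-2285g had 10, 4 and 10 against 16, 8 and 10 reads, and -0.32 (SE 0.46). MiR-2285c had 5, 3 and 6 against 10, 4 and 9 reads, and -0.52 (SE 0.52). MiR-2285e had 7, 2 and 6 against 10, 6 and 10 reads on mir-2285e-2, and -0.62 (SE 0.52), while its other precursor, mir-2285e-1, held at most 3 reads. MiR-2284h-5p gave 0.50 (SE 0.47). For the last 4 of these, the edgeR adjusted p lay between 0.419 and 0.636, and the groups overlapped in all of them.

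Of the 353 miRNAs tested, 76 (21.5%) were called, 42 (11.9%) higher and 34 (9.63%) lower in dominant follicles. Of the 30 members tested, 0 were called higher and 1 lower (3.33%), against 3 members with an edgeR p under 0.05 before adjustment, namely miR-2285k, miR-2284x and miR-2284y. DESeq2 gave the same counts of 0 and 1. The groups did not overlap for 7 members (23.3%), 2 higher and 5 lower, against 36.8% of all miRNAs tested. The 2 higher were miR-2284x and miR-2284y, which share their reads. The 5 lower included miR-2284t-5p and miR-2285r, with at most 1 read in any dominant and at most 4 in any subordinate library. By the false discovery rate without a fold limit, 3 members passed, against 30.3% of all. Members were also less well covered: their median of mean reads was 5.75 against 15.5 over all miRNAs tested, and 20 of 30 (66.7%) had a mean under 10 reads, against 159 of 353. Among miRNAs averaging 10 or more reads, 1 of 10 members was called, against 30.9% of 194 in all, and those 10 names are 5 sets of reads. Being tested required reads in a group, so members with reads in 1 group alone enter with a difference already built in.

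Both counts of called members moved when a library was left out. Without dominant replicate 3, 1 member was called higher and 2 lower: miR-2284t-3p joined miR-2285k with a log2 fold change of -2.10 (edgeR adjusted p = 0.0646), and miR-2285s was called on 1 and 2 reads in the remaining dominant libraries. Without subordinate replicate 2, the members called lower were miR-2285k and miR-2285m, the latter on 2 and 3 reads against 0 in dominant follicles. The calls of miR-2285s and miR-2285m rested on 3 and 5 reads in all.

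**Figure D4:**
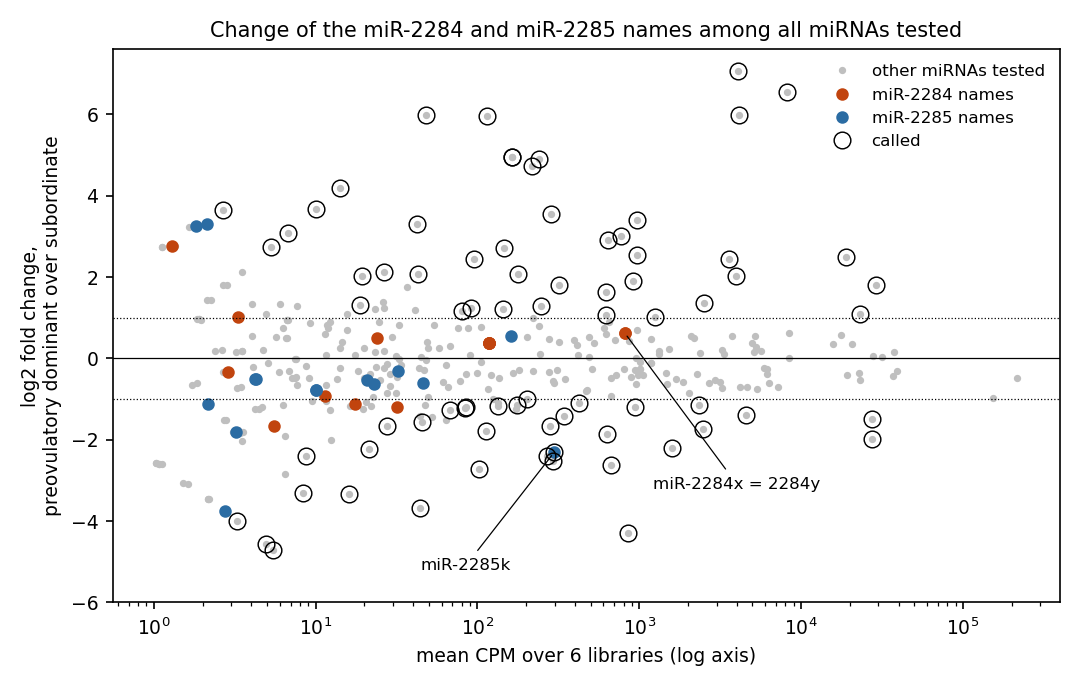
Log2 fold change, preovulatory dominant over subordinate, against mean CPM over the 6 libraries (log axis) for the 353 miRNAs tested, with miR-2284 names in red, miR-2285 names in blue, called miRNAs ringed and dotted lines at log2 fold changes of 1 and -1. MiR-2285k at -2.31 is the ringed member, and miR-2284x/y lies at 0.63 inside the lines.

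The median log2 fold change was -0.41 over the 30 member names, with 17 negative (56.7%), against -0.20 and 53.8% negative over all miRNAs tested. For the 15 miR-2284 names it was 0.37, with 10 positive, but 7 of these belong to the 2 shared sets. With names of equal counts taken once, miR-2284 had 5 positive and 5 negative values and a median of 0.02. The miR-2285 names had a median of -0.60, with 12 of 15 negative, and taken once a median of -0.56, with 11 of 14 negative. Over all miRNAs taken once the median was -0.24, with 184 of 337 negative. The difference between the families was not tested. Values of names at 0 reads in a group depend on the fitting and lie at the ends of the range.

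Cell markers were compared with these results. All 6 granulosa miRNAs listed had reads in every library, and their summed level was 77372 to 93202 CPM in dominant and 21537 to 35272 CPM in subordinate follicles, 4 of 6 being called higher and 1 lower. The list includes miR-202, miR-132 and miR-212, which the authors reported as higher in dominant follicles, so this sum is no measure of granulosa cell content. Both endothelial markers, miR-126-5p and miR-126-3p, had reads in every library and summed to 73.2 to 293 CPM in dominant and 354 to 540 CPM in subordinate libraries, in the direction of miR-2285k, and neither was called. Among subordinate libraries their sum and miR-2285k were both highest in replicate 3. Among dominant ones their sum was lowest in replicate 3, where miR-2285k was highest. The summed level of 5 theca and stroma markers ranged from 17601 to 27821 against 21063 to 35748 CPM, with 1 called lower. That of 7 blood markers ranged from 1305 to 14205 CPM in dominant and from 1366 to 2029 CPM in subordinate libraries. Of the 6 tested, 2 were called higher, and the lowest dominant value was that of replicate 3. Of these markers, miR-142-3p and miR-144 were at 0 in some libraries. The part of other cells in the results was not tested. Fewer cells of a type and less RNA per cell cannot be told apart in such samples.

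By name, 83 of the 85 member precursors matched genes of the RefSeq annotation of assembly ARS-UCD2.0, a later build than the UMD3.1 of the counts, and lay on 27 chromosomes or scaffolds. The gene of 54 of them (65.1%) lay within the interval of a protein-coding gene, with exon, intron and strand not given. MIR2284X lay within TIAM1, which encodes an activator of the small GTPase RAC1. For miR-2285k, MIR2285K-1 lay within DLG2, MIR2285K-2 within PIP4K2A and MIR2285K-5 within LRRC8D, while MIR2285K-3 and MIR2285K-4 lay in no protein-coding gene. The 5 rows of miR-2285k thus belong to separate surroundings, but they largely share reads, so their likeness says nothing of the single precursors. MIR2284T lay within SPON1 and MIR2285F-1 within TBK1.

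Another miRNA gene overlapped 10 of the matched precursors. MIR2284H and MIR2284Y-4, the precursors on which miR-2284h-5p was counted, overlapped MIR2285O-5 and MIR2285O-3, respectively. MiR-2285o had 0, 1 and 2 reads in dominant and none in subordinate follicles. The annotation holds 191 genes of the 2 families among 1032 miRNA genes (18.5%), more than the 85 precursors counted here.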

How the data were processed

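Small RNA of granulosa cells was sequenced in 3 libraries of preovulatory dominant and 3 of subordinate follicles, grouped by the sample labels. The deposited values are read counts without normalization: the authors called bases with CASAVA 1.8.0, trimmed with Cutadapt and Seqtk, mapped to the bovine genome (UMD3.1 per the labels) with Bowtie, and counted on miRBase miRNAs with miRDeep2. Reads fitting several precursors appear in each of their rows. Here the largest count among the rows of a mature name was kept in each library. For miR-2285f and miR-2285n it came from different rows in different libraries. Names with equal counts in all 6 libraries were grouped. Totals were 259857, 190385 and 311842 reads in dominant and 330310, 364125 and 306932 in subordinate libraries.

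Changes were tested with edgeR 4.0.16 (R 4.3.3), TMM factors and quasi-likelihood F tests of follicle type without covariates, over the 353 names with at least 1 read in 2 or more libraries of a group, with Benjamini-Hochberg adjustment. The limits for a call were 1 for the size of the log2 fold change, 0.05 for p and 0.1 for the false discovery rate. The SE is the log2 fold change divided by the root of the quasi-likelihood F. The script was tested on simulated data. No pair of libraries agreed within sampling noise. Same-numbered libraries of the groups deviated together over 194 miRNAs (r of 0.136, 0.378 and 0.408), though dominant replicate 2 with subordinate replicate 1 (0.193) and dominant replicate 1 with subordinate replicate 2 (0.124) reached values like that of the first pair. The labels give only the number, so this pairing comes from the data, and a fit with it is in the closing section.

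Members and marker lists were chosen with earlier results of these data known. Members are named where they averaged 5 or more reads in a group, or for a call, a shared set or reads of both arms; others named, for detection in 1 group or a call without 1 library, were chosen after their values were seen. Alternatives were DESeq2 1.42.0, other scaling, filters, thresholds and precursor rows, and leaving out each library. Plots used Python 3.11.15 and matplotlib 3.10.9.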

Additional observations from a re-analysis of the deposited data

How the results depend on the processing

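MiR-2285k was called lower in dominant follicles under each alternative run, with log2 fold changes from -2.59 (without subordinate replicate 2) to -1.76 (without subordinate replicate 3) and adjusted p from 8.81e-06 to 0.0448 with edgeR or DESeq2. Without the fold limit 2 members were called higher, miR-2284x and miR-2284y. Leaving out each library in turn gave 0 to 1 members higher and 1 to 2 lower. With the replicate number as a block, 0 members were called higher and 1 lower (miR-2285k), and the block changed no member's call. The total called was 71 with the block, 63 to 107 over the other alternatives and 54 to 78 on leaving out a library. Scaling by total count moved miR-2284x/y to 0.84.

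Detection depends on depth: with at least 5 reads required, 14 members were detected in dominant and 18 in subordinate follicles, against 27 and 26 by the rule used. Counting every name raised the share of reads to 0.337% in dominant and 0.255% in subordinate follicles, and summing rows to 0.656% and 0.528%, since shared reads then count repeatedly. Fits of single precursor rows were chosen after seeing the data: mir-2285e-1 alone turned miR-2285e to 1.06 (edgeR adjusted p = 0.562) on at most 3 reads per library, and the mir-2284h row of miR-2284h-5p passed the limits for a call (fitted log2 fold change 3.63, edgeR adjusted p = 0.0997) on reads below the floor, a value that depends on the fitting.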
